A study of Sus scrofa with 6 samples.

Results

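Heat shock proteins and the other molecular chaperones were examined in porcine satellite cells (PSCs), stem cells of skeletal muscle that give rise to myotubes, at 24 h and 36 h of differentiation. The genes were taken by symbol: every gene whose symbol begins with HSPA, HSPB, HSP90, HSPD, HSPE, HSPH, DNAJ, PDIA, CCT and a digit or BAG and a digit, together with TCP1, CALR, CANX and HYOU1. That gave 72 genes out of the 28266 listed in the deposited expression table, of which 11804 could be paired with a symbol. By location, 32 were assigned to the cytosol, 22 to the endoplasmic reticulum (ER), 6 to mitochondria and 3 to the small heat shock proteins, and 9 act elsewhere or have no settled location.

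Each group held 3 RNA-seq libraries (replicates 4, 5 and 6) of satellite cells from Yorkshire skeletal muscle, and the study isolated its cells from limb muscle of 3-day-old male pigs and differentiated them in horse serum medium. For the later group the series title and the study's methods state 36 h, which is used here, against 48 h in the sample labels. The titles carry the letter N, with which the study marks cells that received negative control (NC) siRNA, although the labels themselves name no siRNA, so that all 6 libraries would share that transfection. Nothing in the labels says whether replicates came from separate animals or cultures, so p-values measure the spread between these libraries, which may be technical.

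Chaperones bind unfolded or partly folded proteins and let them fold, assemble or be degraded. HSP70 proteins do so in cycles of ATP hydrolysis that J-proteins (DNAJ) start and nucleotide exchange factors such as the HSP110 proteins and BAG1 end. HSP90 acts on near-native clients, and the chaperonins enclose a client in a chamber. Small heat shock proteins hold unfolded proteins without ATP, and in striated muscle several of them sit on the sarcomere and its cytoskeleton.

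Between 16250222 and 21723087 fragments per library stood behind the table, and 1 fragment on a gene of 1 kb was worth between 0.0457 and 0.061 FPKM (fragments per kilobase of gene, scaled to the size of the library). Pearson's r across genes was between 0.972 and 0.994 for libraries of a group and between 0.91 and 0.962 across groups. The 24 h replicate 6 stood apart from the rest of its group, and results that rest on it are given with and without it. As an RNA extraction note in the labels names the endometrium, markers were checked. DES, MYOD1, MYMK and ACTA1 of myogenic cells were abundant (DES between 1452 and 3367 FPKM), 8 of the 12 myogenic markers were in the table, and 6 of those 8 rose. Of the epithelial and endometrial markers, KRT8 and PGR were listed at 0 in all 6 libraries and EPCAM in 5 of them, while HOXA10 was between 13.2 and 15.8 FPKM, HOXA11 between 2.75 and 3.57 FPKM, and CDH1 rose from a mean of 0.318 to 3.63 FPKM (limma adjusted p 0.00155). KDR of endothelium and PTPRC of leukocytes were listed at 0, PECAM1 was between 1.01 and 1.67 FPKM and CD68 between 0.634 and 2.40 FPKM. A listed 0 does not show that a gene is off, since SLC35B2, which most cells use, was also listed at 0 throughout. The 8 fibroblast markers in the table summed to between 831 and 1037 FPKM per library, led by COL1A2 and COL3A1 (3 of the 8 rose and 3 fell), and PAX7 and MYOG were not analysed here.

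Of the 72 chaperone genes, 63 had a mean of at least 1 FPKM over the 6 libraries and were tested with limma on log2(FPKM + 1), across all 14060 such genes of the table. From 24 h to 36 h, 33 of the 63 fell, 5 rose and 25 did not pass an adjusted p of 0.05; a gene is called higher or lower where it passed. The 38 genes that passed are 60.3% of those tested, against 50.9% of all genes tested (16.5% higher and 34.4% lower at 36 h). The median log2 change of the 63 genes was -0.29, against -0.16 for all genes tested and -0.12 for genes with a mean of at least 10 FPKM. Among the 6984 genes at that higher level, 57.5% passed (20.4% higher and 37.1% lower), and chaperone genes are mostly abundant, with a median level of 42.2 FPKM. In bulk RNA, fewer cells of a type and less RNA per cell cannot be told apart.

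The balance of rises and falls depended on how the libraries were scaled. When a factor per library was set so that its genes lay, at the median, on their geometric mean over the 6 libraries (median-ratio scaling), the median change of all genes moved from -0.16 to -0.0058, 46.3% of them passed (23.9% higher and 22.3% lower), and of the chaperone genes 21 were lower and 10 higher, with a median of -0.12. After quantile normalization 46.8% of all genes passed (21.6% higher and 25.2% lower). Without the 24 h replicate 6, 35 chaperone genes were lower and 5 higher, where 52.2% of all genes passed. In 23 of the 38 genes that passed, direction and call were the same in every alternative run other than a fold threshold. The 3 values at 36 h all lay below those at 24 h in 35 chaperone genes and above them in 8, and the groups overlapped in 20; over all genes tested 63.6% did not overlap (42.6% below and 21% above).

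**Figure D1:**
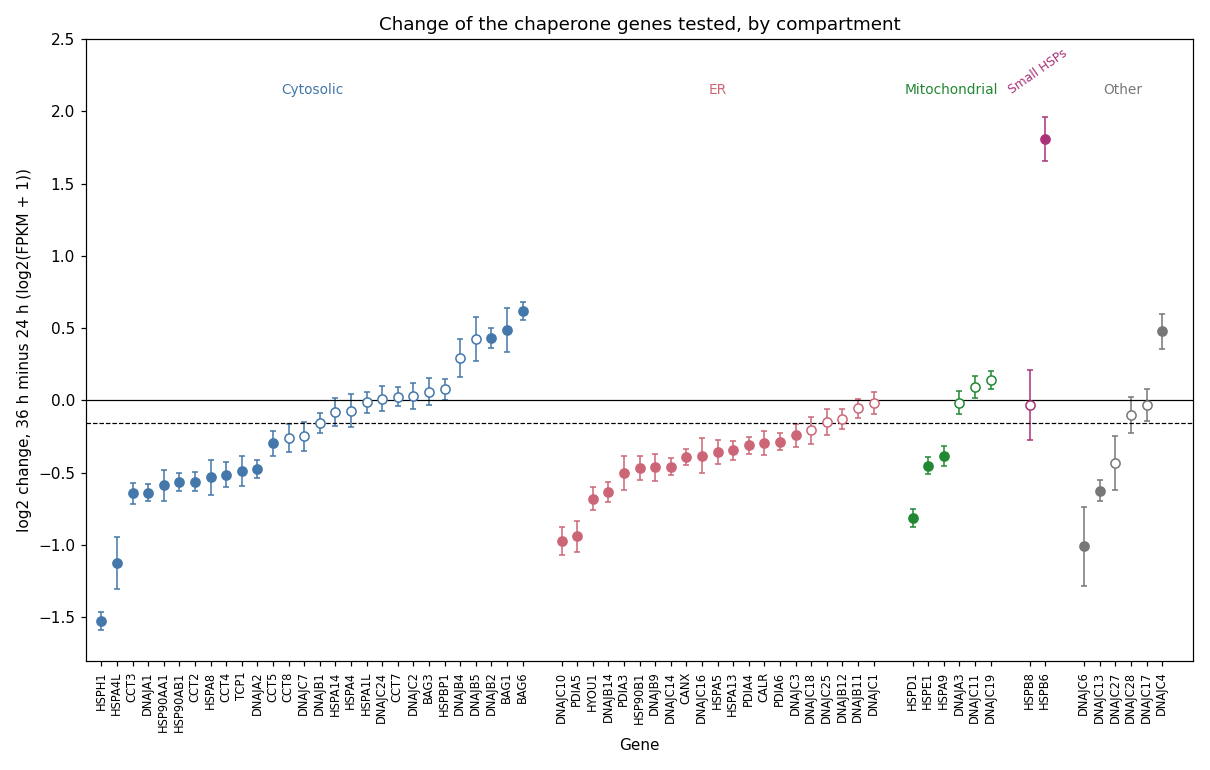
Log2 change (36 h minus 24 h, on log2(FPKM + 1)) of the 63 chaperone genes tested, ordered within each location, with bars for the standard error of the limma fit (3 libraries per group). Filled points passed an adjusted p of 0.05, the dashed line marks the median of all genes tested (-0.16), and HSPH1 (-1.52) and HSPB6 (1.81) lie at the ends; with median-ratio scaling the points move up by about the distance of the dashed line from 0.

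In the cytosol the genes of HSP90, of the constitutive HSP70, of most chaperonin subunits and of 2 type A J-proteins fell, and the nucleotide exchange factor HSPH1 fell most, while BAG6, BAG1 and DNAJB2 rose. Of the 28 cytosolic genes tested, 12 were lower, 3 higher and 13 did not pass, with a median log2 change of -0.20 (all genes tested: 34.4% lower and 16.5% higher). With median-ratio scaling 9 were lower and 6 higher, and the median was -0.028 (all genes tested: 22.3% lower and 23.9% higher). The summed FPKM of the cytosolic genes was 4102, 4001 and 3566 in the 24 h libraries and 3081, 3073 and 3187 in the 36 h libraries. On the deposited values every library at 36 h thus lay below every one at 24 h. Median-ratio scaling divides by 1.05, 1.06 and 1.09 at 24 h and by 0.952, 0.935 and 0.942 at 36 h, which brings these sums closer. After division by these factors the groups overlap, as the 24 h replicate 6 then lies below the 36 h replicate 6.

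HSPH1 (HSP105), an HSP110 protein that exchanges nucleotide on HSP70 and disaggregates proteins with it, was at 68.7, 71.2 and 67.6 FPKM at 24 h and 22.3, 23.2 and 24.8 FPKM at 36 h. The groups were far apart compared with the spread inside each, the mean at 36 h was 0.339 times that at 24 h, and the log2 change was -1.52 (SE 0.063, limma adjusted p 0.00046). Over the alternatives it ranged from -1.56 to -1.35, and on log2(FPKM + 1) it was the largest fall of the chaperone genes tested. By the ratio of means the low-level DNAJC6 fell further (0.204). The gene lies on chromosome 11 at 7733874 to 7759528 (RefSeq, Sscrofa11.1). Its relative HSPA4L, also an exchange factor, was at 11.07, 12.6 and 18.7 FPKM and then 5.59, 5.41 and 6.37 FPKM. Replicate 6 held the highest of these 24 h values, and the log2 change was -1.12 (SE 0.18, limma adjusted p 0.00338) with it and -0.92 (limma adjusted p 0.001) without it. The third cytosolic HSP110 gene, HSPA4, gave 141, 127 and 103 FPKM at 24 h and 117, 115 and 118 FPKM at 36 h, groups that overlapped through the low 24 h replicate 6. Its change of -0.07 did not pass (limma adjusted p 0.631), was -0.19 without that library (limma adjusted p 0.0396), and was positive, 0.10, with median-ratio scaling.

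HSP90AA1, the stress-inducible HSP90 alpha, had the highest mean of the chaperone genes at 24 h, with 743, 707 and 589 FPKM, and 419.8, 446 and 488 FPKM at 36 h. All 3 values at 36 h lay below all 3 at 24 h, and the log2 change was -0.59 (SE 0.11, limma adjusted p 0.0053). The constitutive HSP90AB1 (HSP90 beta) went from 432, 446 and 409.6 to 296, 289 and 283 FPKM, a log2 change of -0.57 (SE 0.062, limma adjusted p 0.00121). Both changes passed under each scaling, at -0.41 and -0.39 with median-ratio scaling. The order of the pair depends on the gene models of the table, whose lengths come out as 1866 nt for HSP90AA1 and 6664 nt for HSP90AB1. In RefSeq, SLC35B2 overlaps HSP90AB1, and it was listed at 0 in all 6 libraries, so fragments of it could have been counted to HSP90AB1, which was not tested.

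HSPA8, the constitutive HSP70 of the cytosol, was at 155, 158 and 121 FPKM at 24 h and 94.8, 93.9 and 109 FPKM at 36 h. The groups did not overlap, although the 24 h replicate 6 lay closer to the 36 h libraries than to its own group, and the change of -0.53 (SE 0.12, limma adjusted p 0.0105) lost the call with median-ratio scaling (-0.36, adjusted p 0.0622). HSPA1L, of the gene cluster of the inducible HSP70 genes, was listed at 136, 126 and 132 FPKM and 122, 128 and 142 FPKM and overlapped between groups (log2 change -0.012, limma adjusted p 0.902). In RefSeq its interval overlaps HSP70.2 and LOC100624113, and as HSP70 genes of this cluster are near-identical, which of them its fragments belong to is uncertain. The ribosome-associated HSPA14, between 12.1 and 15.5 FPKM, did not pass either. HSPA1A, HSPA1B and HSPA2 were not analysed here.

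The J-proteins of the cytosol, which hand clients to HSP70 and set off its ATPase, went both ways. DNAJA1 was at 296, 299 and 304 FPKM at 24 h and 194, 183 and 199.8 FPKM at 36 h, with a log2 change of -0.64 (SE 0.06, limma adjusted p 0.00087). DNAJA2 went from 68.7, 68.4 and 65.8 to 50.8, 48.0 and 46.5 FPKM (-0.47, limma adjusted p 0.00165), and both type A genes also passed as lower with median-ratio scaling. In contrast, DNAJB2, a type B J-protein that binds ubiquitinated clients, rose from 21.7, 21.3 and 21.3 to 30.3, 30.6 and 26.9 FPKM (0.43, SE 0.07, limma adjusted p 0.0034), and the groups did not overlap. DNAJB1 (HSP40) was at 41.4, 41.3 and 38.3 FPKM and 38.6, 34.3 and 35.6 FPKM, and its change of -0.15 did not pass (limma adjusted p 0.106) and was 0.017 with median-ratio scaling. DNAJB4 gave 75.6, 69.9 and 53.7 FPKM at 24 h and 76.1, 78.0 and 88.6 FPKM at 36 h. Every 36 h value lay above every 24 h value, but the change of 0.29 did not pass on the deposited values (limma adjusted p 0.107), while it did with median-ratio scaling (0.47, adjusted p 0.0392). Without the 24 h replicate 6, its lowest library, the change was 0.15 (adjusted p 0.17). DNAJB5 was at 14.1, 12.9 and 9.40 FPKM and 14.6, 17.2 and 17.5 FPKM, also without overlap, and its change of 0.42 missed the threshold (limma adjusted p 0.0537). It passed with median-ratio scaling (0.59, adjusted p 0.026), quantile normalization (adjusted p 0.0333) and limma voom on the recovered fragments (adjusted p 0.042). It also passed with the filter at a mean of 5 FPKM (adjusted p 0.0499) and without the 24 h replicate 4 (0.53, adjusted p 0.0301). Without the 24 h replicate 6 its change was 0.26 and did not pass (adjusted p 0.0632). In total 9 cytosolic J-protein genes were tested, of which 2 were lower and 1 higher. That is 33.3% called, fewer than the 50.9% of all genes tested (34.4% lower and 16.5% higher). DNAJC7, which links HSP70 and HSP90, was at 88.0, 85.8 and 72.2 FPKM and then 75.4, 67.3 and 64.0 FPKM, and passed as lower without the 24 h replicate 6 (-0.33, adjusted p 0.0139) but not with it (-0.25, adjusted p 0.0775). DNAJC2 (0.032) and DNAJC24 (0.013) did not pass, nor did the exchange factor HSPBP1 (0.079), which was called higher with median-ratio scaling (0.25, adjusted p 0.0336).

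The BAG genes, of which BAG1 encodes an exchange factor of HSP70 and BAG3 an HSP70 co-chaperone, included 2 of the 3 cytosolic genes that rose. BAG6, which shields hydrophobic segments of tail-anchored and mislocalized proteins, was at 182, 191 and 182 FPKM at 24 h and 269.9, 294 and 292 FPKM at 36 h. The mean rose 1.54-fold with no overlap (log2 change 0.62, SE 0.062, limma adjusted p 0.000984), and it ranged from 0.59 to 0.79 over the alternatives. BAG1, which tethers HSP70 to the proteasome, rose from 30.3, 26.1 and 19.4 to 36.7, 35.8 and 33.2 FPKM (0.49, SE 0.15, limma adjusted p 0.0349). The 24 h replicate 6 was the lowest library, and without it the change was 0.32 (adjusted p 0.0213). The call was lost without the 24 h replicate 5 (adjusted p 0.0699) and without any 1 of the 36 h libraries (adjusted p between 0.0638 and 0.0984). It was also lost with no filter on the mean (adjusted p 0.0547). BAG3, the partner of HSPB8 in the selective autophagy of damaged filament proteins in muscle, stayed within overlapping ranges, 67.0, 65.3 and 53.5 FPKM and 62.1, 67.2 and 63.9 FPKM (0.061, limma adjusted p 0.615), with a change of -0.039 without the 24 h replicate 6.

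The ring-shaped chaperonin TRiC, which folds actin and tubulin, is built from 8 different subunits, of which CCT6A was not analysed here. Of the 7 tested, 5 fell and 2 did not pass, where 34.4% of all genes tested were lower. With median-ratio scaling CCT2, CCT3 and CCT4 still passed as lower while TCP1 and CCT5 did not, where 22.3% of all genes tested were lower. CCT3 had the largest change, from 257, 257 and 227 FPKM at 24 h to 164, 152 and 158 FPKM at 36 h (-0.64, SE 0.073, limma adjusted p 0.0013). CCT2 went from 212, 207 and 194 to 145, 133 and 137 FPKM (-0.56, SE 0.064, limma adjusted p 0.00132), and CCT4 from 152, 141 and 123 to 100.1, 92.8 and 97.1 FPKM (-0.51, SE 0.088, limma adjusted p 0.00409). In these 3 subunits, in TCP1 and in CCT5 every 36 h value lay below every 24 h value. TCP1 (CCT1) was at 138, 130.4 and 105 FPKM and then 88.9, 87.1 and 87.2 FPKM (-0.49, limma adjusted p 0.00899). CCT5 was at 207, 194 and 170.3 FPKM and then 164, 150.2 and 150.4 FPKM (-0.30, limma adjusted p 0.0284), and lost its call when 1 of 4 libraries was left out, 24 h replicate 4 (adjusted p 0.0722) or 5 (adjusted p 0.0896) or 36 h replicate 5 (adjusted p 0.0981) or 6 (adjusted p 0.0807). CCT8, at 208, 191 and 164 FPKM and 152, 152 and 164 FPKM, overlapped between groups and passed only without the 24 h replicate 6 or after quantile normalization (-0.26, adjusted p 0.0616, against -0.35 and adjusted p 0.00621 without that library).

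CCT7 was not among the subunits that fell. It was at 293, 291 and 263 FPKM at 24 h and 283, 288 and 291 FPKM at 36 h, overlapping groups with a log2 change of 0.025 (SE 0.066, limma adjusted p 0.775), which was -0.025 without the 24 h replicate 6. In the 24 h libraries the subunits spread from 105 to 293 FPKM and in the 36 h libraries from 87.1 to 290.5 FPKM, with CCT7 the highest of the 7 in every library. The coefficient of variation over the subunits of a library was between 25.9% and 31.2% at 24 h and between 40.3% and 44.1% at 36 h, and without CCT7 it was between 22.4% and 27.4% and between 23.7% and 24.6%. The ratio of CCT7 to the geometric mean of the 6 others, computed after the values were seen, went from 1.60 ± 0.066 (SD, n = 3) to 2.24 ± 0.085, without overlap, at an exact two-sided permutation p of 0.1, the smallest that 3 against 3 can give. In all 7 subunits the 24 h replicate 6 was the lowest of its group.

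**Figure D2:**
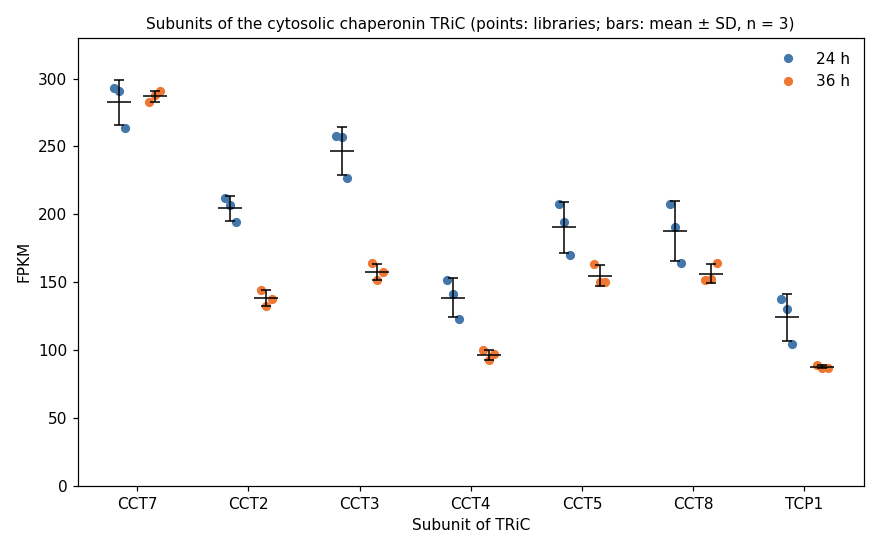
FPKM of the 7 TRiC subunits tested in each library (points, blue for 24 h and orange for 36 h), with the mean and SD of 3 libraries in black. CCT7 overlaps between the groups, whereas CCT2, CCT3, CCT4, CCT5 and TCP1 lie lower at 36 h in every library.

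In the ER, the 21 genes tested all had negative changes on the deposited values, 18 of them after quantile normalization and 17 with median-ratio scaling. On the deposited values 16 passed as lower and 0 as higher, with a median change of -0.36 (all genes tested: 34.4% lower and 16.5% higher). With median-ratio scaling 8 passed as lower and 0 as higher, and the median was -0.18 (all genes tested: 22.3% lower and 23.9% higher). The groups did not overlap in 18 of the 21 genes, in each with 36 h below, as in 42.6% of all genes tested. The summed FPKM of the ER genes was 1579, 1639 and 1784 at 24 h and 1274, 1254 and 1316 at 36 h.

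HSPA5 (BiP), the HSP70 of the ER lumen that also restrains the stress sensors of the unfolded protein response, was at 174, 187 and 207 FPKM at 24 h and 144, 142 and 156 FPKM at 36 h. The groups did not overlap, and the change of -0.36 (SE 0.083, limma adjusted p 0.0118) missed the threshold with median-ratio scaling (-0.18, adjusted p 0.0839) and without the 36 h replicate 5 (adjusted p 0.0525). Its exchange factor HYOU1 (GRP170) fell from 36.0, 39.7 and 43.4 to 24.0, 24.2 and 24.8 FPKM (-0.68, SE 0.079, limma adjusted p 0.00136). HSP90B1 (GRP94), the HSP90 of the ER, went from 114, 117 and 137 to 87.0, 87.5 and 89.6 FPKM (-0.47, SE 0.081, limma adjusted p 0.00421). HYOU1 and HSP90B1 passed as lower under each scaling. HSPA13, a microsome-associated HSP70, went from 25.1, 24.9 and 25.7 to 18.3, 20.3 and 20.4 FPKM (-0.34, limma adjusted p 0.00604), and lost the call with median-ratio scaling (adjusted p 0.0745).

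Calreticulin and calnexin, the lectins that hold glycoproteins until they fold, both fell on the deposited values. CALR was at 319.7, 350.5 and 386 FPKM and then 284, 279.8 and 295 FPKM (-0.29, SE 0.082, limma adjusted p 0.0233), and did not stay past the threshold with median-ratio scaling (-0.12, adjusted p 0.221) and without the 24 h replicate 5 or the 36 h replicate 4 or 5 (adjusted p between 0.0631 and 0.085). CANX was at 157, 155 and 156 FPKM and then 114, 118 and 124 FPKM, values that hardly differed inside the 24 h group, and its change of -0.39 (SE 0.057, limma adjusted p 0.00254) passed under each scaling.

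The 4 protein disulfide isomerases tested, which form and rearrange disulfide bonds, fell as well on the deposited values. PDIA3 (ERp57), the partner of the lectins, was at 228, 240.1 and 307 FPKM and then 179.8, 178 and 185 FPKM (-0.50, SE 0.11, limma adjusted p 0.0114), and replicate 6 was the highest of the 24 h libraries. Without that library its change was -0.37 (adjusted p 0.00251). PDIA5 had the largest change of the 4, from 7.43, 7.99 and 9.69 to 3.71, 3.80 and 4.07 FPKM (-0.94, SE 0.11, limma adjusted p 0.00134). PDIA4 went from 70.9, 71.0 and 73.1 to 55.6, 56.8 and 60.5 FPKM (-0.31, limma adjusted p 0.00551) and PDIA6 from 183, 185 and 176 to 152, 142 and 152 FPKM (-0.28, limma adjusted p 0.00807). Neither of these last 2 passed with median-ratio scaling (adjusted p 0.0991 and 0.2), whereas PDIA3 and PDIA5 did.

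Of the 11 ER J-protein genes tested, 6 passed as lower, against 10 of the 10 other ER genes, and 3 and 5 did so with median-ratio scaling. Of all genes tested 34.4% were lower, and 22.3% with median-ratio scaling. DNAJC10 (ERdj5), a disulfide reductase that prepares misfolded proteins for degradation, was at 29.2, 30.9 and 36.7 FPKM at 24 h and 15.6, 15.1 and 17.0 FPKM at 36 h. Its log2 change of -0.97 (SE 0.10, limma adjusted p 0.000984) was -0.80 with median-ratio scaling. It and PDIA5 fell most among the ER genes, DNAJC10 more on log2(FPKM + 1) and PDIA5 more by the ratio of means (0.461 against 0.493). DNAJB9 (ERdj4), which acts with BiP on the stress sensor IRE1, went from 34.3, 29.4 and 26.9 to 21.1, 21.5 and 22.0 FPKM (-0.46, limma adjusted p 0.0073; adjusted p 0.0579 with median-ratio scaling). DNAJC3 (p58IPK) was at 16.4, 13.9 and 15.5 FPKM and then 12.7, 12.7 and 12.7 FPKM. Its change of -0.24 passed narrowly (limma adjusted p 0.0362). It did not pass with median-ratio scaling (adjusted p 0.436), quantile normalization (adjusted p 0.321) or the replicate number as a block (adjusted p 0.0528). Nor did it pass without 24 h replicate 4 or 6 or any 36 h library (adjusted p between 0.0574 and 0.107). By comparison DNAJB11 (ERdj3), a secreted BiP co-chaperone, gave overlapping values of 36.8, 36.1 and 34.2 FPKM and 36.2, 32.8 and 34.1 FPKM (-0.054, limma adjusted p 0.511). Of the J-proteins of the ER membrane, DNAJB14 fell from 13.4, 12.8 and 13.5 to 8.49, 7.81 and 8.21 FPKM (-0.64) and DNAJC14 from 45.3, 46.7 and 48.9 to 34.6, 32.9 and 34.2 FPKM (-0.46), both also lower with median-ratio scaling, and DNAJC16 fell by 0.38. The other 4, DNAJC18, DNAJC25, DNAJB12 and DNAJC1, had changes between -0.21 and -0.017 that did not pass. DNAJC16 did not pass with median-ratio scaling (adjusted p 0.188), quantile normalization (adjusted p 0.164) or no filter on the mean (adjusted p 0.0575). It also did not pass without 24 h replicate 4 or 5 or 36 h replicate 5 or 6 (adjusted p between 0.0583 and 0.118).

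Replicate 6 of the 24 h group differed from its group in many chaperone genes. It was the lowest of the 3 libraries in 22 of the 28 cytosolic genes tested and the highest in 4. Among the 21 ER genes it was the highest in 12 and the lowest in 6, and the highest in 8 of the 10 that are not J-proteins. The same counts over all genes tested were not made. This library also stood apart over all genes tested (Pearson's r 0.972 and 0.981 with replicates 4 and 5), so the counts are not read as a contrast of cytosol and ER. The 8 myogenic markers in the table summed to 5572, 4842 and 2970 FPKM in the 24 h libraries and to 13486, 13317 and 11757 FPKM at 36 h, where 6 of the 8 rose, and replicate 6 had the lowest sum of all. The part of this difference in myogenic genes in the chaperone values was not tested. Without replicate 6, the cytosolic genes gave 15 lower and 3 higher, and the ER genes 15 lower and 0 higher. Of all genes tested in that fit 34.6% were lower and 17.6% higher.

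**Figure D3:**
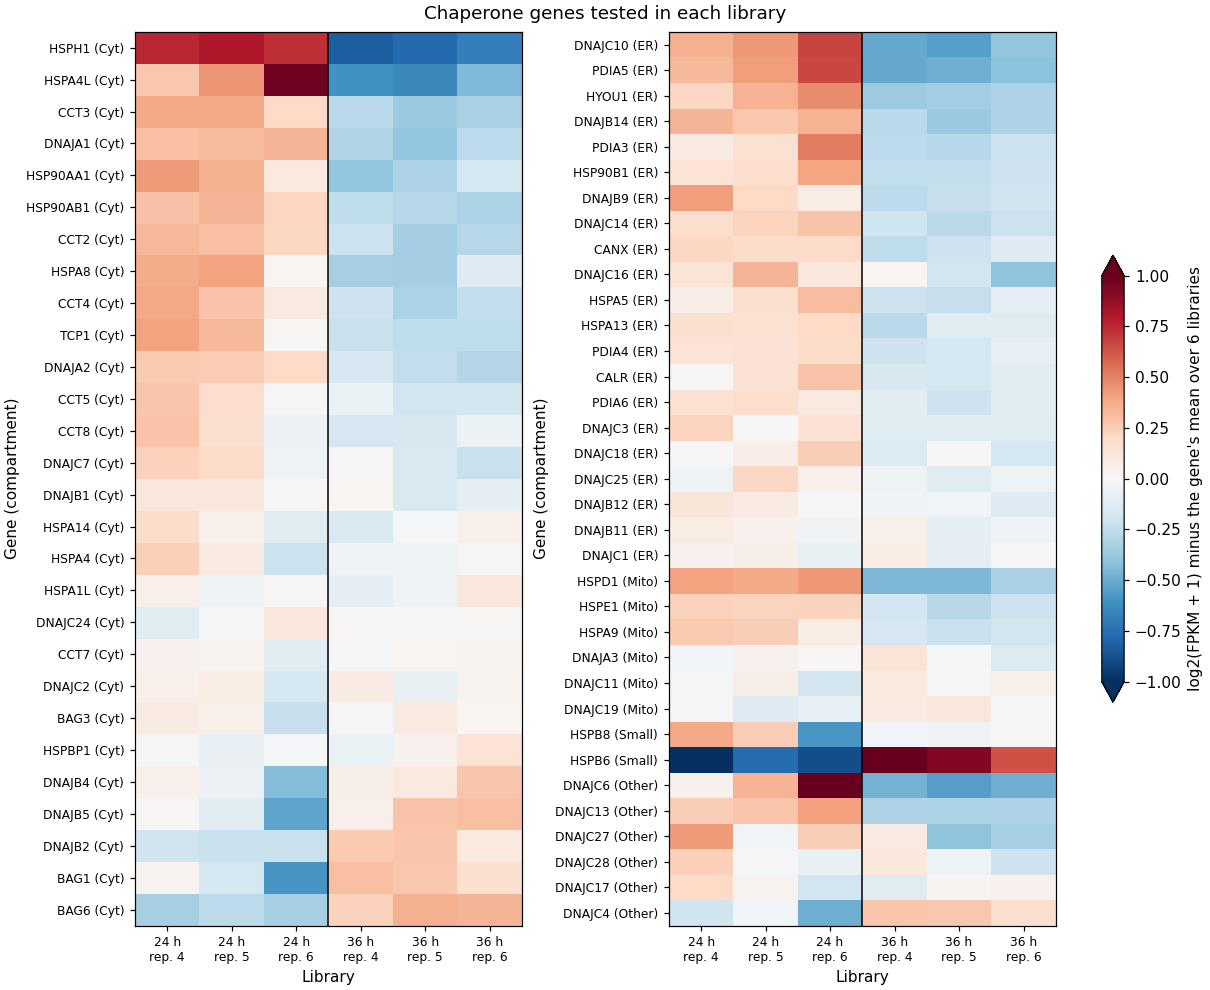
Heat map of the 63 chaperone genes tested in the 6 libraries, as log2(FPKM + 1) minus the mean of the gene over all libraries (red above, blue below, with colours ending at 1 and -1); genes are grouped by location (Cyt, cytosol; Mito, mitochondrion) and ordered by log2 change. The 24 h replicate 6 lies below replicates 4 and 5 in 22 of the 28 cytosolic genes (a paler red or a darker blue) and above them in HYOU1, PDIA3, HSP90B1 and HSPA5.

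Among the 6 mitochondrial genes, the chaperonin pair and the matrix HSP70 fell, and the 3 J-protein genes did not pass. HSPD1 (HSP60), the chaperonin of the matrix, was at 218, 215 and 223 FPKM at 24 h and 121, 121 and 132 FPKM at 36 h. The groups were far apart for their spread (log2 change -0.81, SE 0.062, limma adjusted p 0.000692), and the mean at 36 h was 0.568 times that at 24 h. Its lid HSPE1 (HSP10) went from 370.0, 368 and 369 to 276, 261 and 273 FPKM (-0.45, SE 0.057, limma adjusted p 0.0017). Both passed as lower under each scaling. The genes are neighbours, 520 bp apart on chromosome 15, HSPD1 at 101360355 to 101373498 and HSPE1 at 101374019 to 101376146 (RefSeq, Sscrofa11.1). HSPA9 (mortalin), which pulls imported proteins into the matrix, went from 110.3, 109 and 97.0 to 81.8, 79.0 and 80.8 FPKM (-0.38, limma adjusted p 0.0046), and missed the threshold with median-ratio scaling (-0.21, adjusted p 0.0668). DNAJA3 (TID1), its J-protein, was at 41.3, 43.4 and 42.6 FPKM and 46.3, 41.7 and 38.3 FPKM, with overlapping groups (-0.016, limma adjusted p 0.881; 0.15 with median-ratio scaling). DNAJC19, of the import motor at the inner membrane, was at 43.7, 39.8 and 41.2 FPKM and then 46.6, 47.3 and 43.9 FPKM. Its 36 h values all lay above the 24 h ones, by a change of 0.14 that did not pass (limma adjusted p 0.105) except with median-ratio scaling (0.31, adjusted p 0.0109), which also called DNAJC11 higher. The mitochondrial sum was between 804 and 819 FPKM at 24 h and between 585 and 609 FPKM at 36 h.

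Of the small heat shock proteins, HSPB6 rose and HSPB8 overlapped between the groups. HSPB6 (HSP20), an actin-associated protein of muscle, was at 1.55, 2.09 and 1.85 FPKM at 24 h and 10.7, 9.02 and 7.22 FPKM at 36 h, from 110, 144 and 128 fragments and from 934, 831 and 547 fragments. Every 36 h value was above every 24 h value, the ratio of the means was 4.91, and the log2 change of 1.81 (SE 0.15, limma adjusted p 0.000721) was the largest rise of the chaperone genes and ranged from 1.69 to 2.29 over the alternatives. The gene model behind these values is 4206 nt long, more than the whole RefSeq gene of 2573 bp (Sscrofa11.1, chromosome 6, 45181439 to 45184011), so fragments from outside HSPB6 may be among them. LIN37 lies 55 bp to its left, with 6 to 16 fragments per library under its own name, and PROSER3 753 bp to its right.

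HSPB8 (HSP22), which forms a complex with BAG3, was among the most abundant chaperone genes, with 671, 611 and 342 FPKM at 24 h and 506, 502 and 519 FPKM at 36 h. The 36 h values lay close together and inside the range of the 24 h group, whose replicate 6 was far below the other two. With all libraries the change was -0.031 (SE 0.24, limma adjusted p 0.925), and without the 24 h replicate 6 it was -0.33 (adjusted p 0.0066). With median-ratio scaling it was 0.14. HSPB9, a small heat shock protein of testis, was under 1 FPKM in every library and was not tested, and HSPB1, HSPB2, HSPB3 and HSPB7 were not analysed here.

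**Figure D4:**
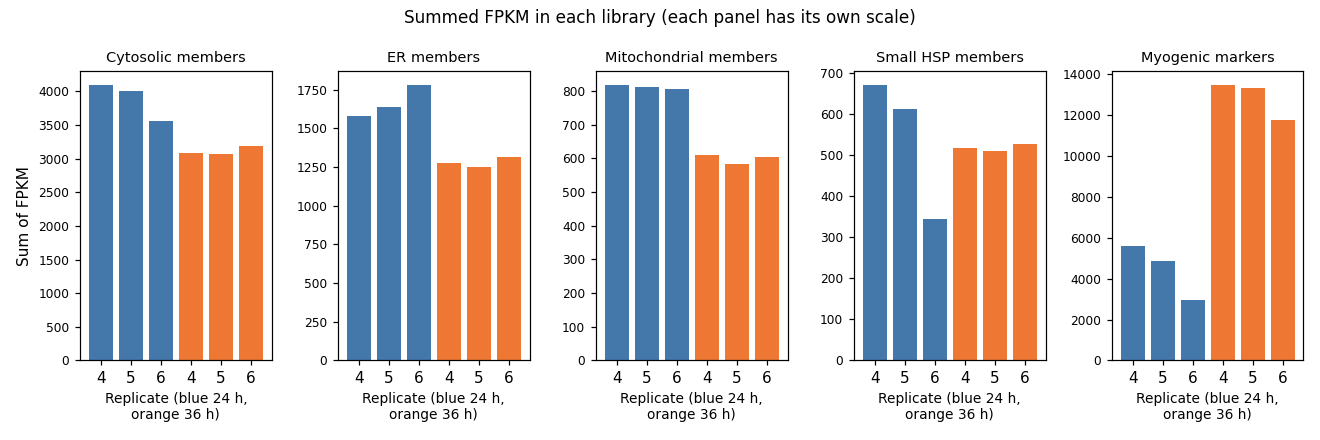
Summed FPKM of the cytosolic, ER, mitochondrial and small chaperone genes and of the 8 myogenic markers in each library (blue 24 h, orange 36 h, replicates 4, 5 and 6 in order); each panel has its own scale from 0. On these deposited values, which were not rescaled, the cytosolic, ER and mitochondrial sums are lower in every 36 h library. The small HSP sum follows HSPB8 and is lowest in 24 h replicate 6, and the myogenic sum is higher in every 36 h library.

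Of the 6 genes tested that act elsewhere, 3 passed (2 lower and 1 higher), which is 50% against 50.9% of all genes tested. DNAJC6 (auxilin), which with HSC70 strips clathrin from vesicles, was at 1.04, 1.53 and 3.33 FPKM and then 0.432, 0.355 and 0.415 FPKM. The log2 change of -1.01 (SE 0.27, limma adjusted p 0.0204) rests on low values and on a high 24 h replicate 6, without which the gene fell under the minimum level and was not tested, and it did not pass without any 1 of the 36 h libraries (adjusted p between 0.0536 and 0.0655). DNAJC13 (RME-8), of endosomes, fell from 15.2, 15.5 and 17.1 to 9.98, 9.93 and 9.99 FPKM (-0.62, SE 0.07, limma adjusted p 0.00128). DNAJC4 rose from 17.9, 20.3 and 14.5 to 25.3, 25.1 and 23.4 FPKM (0.48, SE 0.12, limma adjusted p 0.0158), though not without the 36 h replicate 4 (adjusted p 0.0526) or 5 (adjusted p 0.0576). DNAJC27 (-0.43), DNAJC28 (-0.10) and DNAJC17 (-0.031) did not pass. The genes not tested were CCT6B, CCT8L2, DNAJB13, HSPA12B, PDIA2, HSPB9, DNAJC22, DNAJC5B and DNAJC9, whose means lay at or under 0.557 FPKM. DNAJC9, a histone chaperone, was listed at 0 in every library, and in RefSeq it overlaps FAM149B1.

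By level, HSP90AA1 (680 ± 80.5 FPKM, SD, n = 3) and HSPB8 (541 ± 175 FPKM) led at 24 h, with overlapping values, followed by HSP90AB1 (429 ± 18.2), HSPE1 (369 ± 1.06) and CALR (352 ± 33.0). At 36 h HSPB8 (509 ± 9.11 FPKM) and HSP90AA1 (451 ± 34.4) came first, and then HSP90AB1 (289 ± 6.60), CCT7 (287 ± 4.06), CALR (286 ± 7.57) and BAG6 (285 ± 13.1), a group of 4 whose values overlapped. BAG6 had been 15th and HSPD1 10th by mean at 24 h, and they were 6th and 17th at 36 h. The 10 highest genes held between 51.9% and 53.1% of the summed FPKM of the chaperone genes in each library. All 72 genes together summed to 7229, 7123 and 6551 FPKM at 24 h and to 5535, 5476 and 5687 FPKM at 36 h, which is between 1.12% and 1.24% and between 0.929% and 0.961% of the FPKM of the table. Counting of reads shared by near-identical genes is not given in the sources used here, and 21 of the members are overlapped by another RefSeq gene.

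The 4 locations were not tested against each other, and their counts stand beside the same background. Lower at 36 h were 12 of 28 cytosolic, 16 of 21 ER, 3 of 6 mitochondrial and 0 of 2 small genes, and higher were 3, 0, 0 and 1. The counts of 0 were also 0 at an unadjusted limma p under 0.05 and with limma voom on the recovered fragments. With median-ratio scaling the lower counts were 9, 8, 2 and 0 and the higher counts 6, 0, 2 and 1. By family on the deposited values, 3 of 3 HSP90 genes, 3 of 4 HSP110 genes, 4 of 6 HSP70 genes, 5 of 7 TRiC genes and 4 of 4 PDI genes were lower, and 10 of 29 J-protein genes were lower and 2 higher, where 34.4% of all genes tested were lower and 16.5% higher. Of the other families, 2 of 3 BAG genes and 1 of 2 small genes were higher and 0 lower, also with median-ratio scaling. HSPD1, HSPE1, CALR and CANX were lower on the deposited values, and HSPBP1 did not pass. With median-ratio scaling 3 HSP90, 3 HSP110, 0 HSP70, 3 TRiC, 2 PDI and 7 J-protein genes were lower and 6 J-protein genes higher, where 4 HSP70 genes were lower at an unadjusted p under 0.05.

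**Figure D5:**
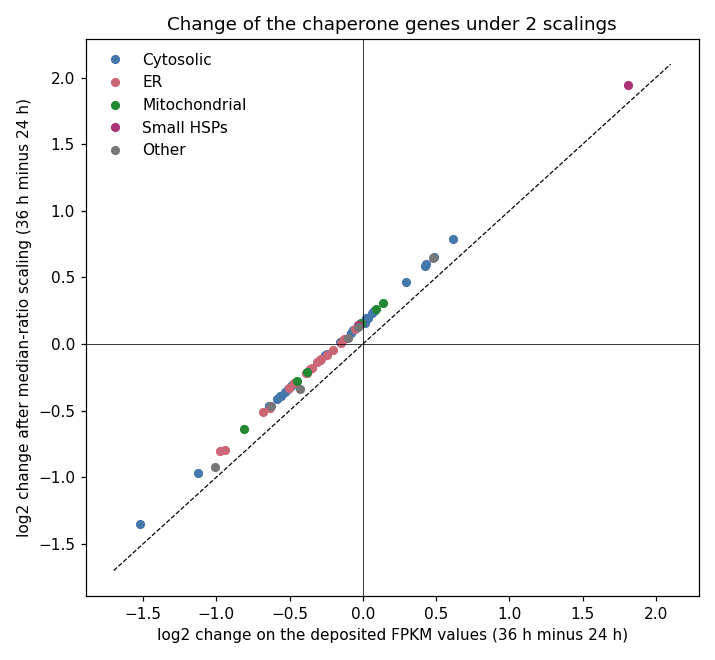
Log2 change (36 h minus 24 h) of each chaperone gene tested on the deposited FPKM values (horizontal axis) and after median-ratio scaling (vertical axis), coloured by location; the dashed line marks equal values. Nearly every point lies above the line by a like amount, so genes with small falls, among them 4 ER genes, cross 0, while HSPH1, HSPA4L, DNAJC10, PDIA5 and HSPD1 stay below it and HSPB6 above it.

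Genes that work with the chaperones were taken from 8 lists of 149 genes, of which 97 were in the table and 94 were tested. Of these 44 were lower and 12 higher (29 and 18 with median-ratio scaling), with a median log2 change of -0.23. Over all genes tested 34.4% were lower and 16.5% higher (22.3% and 23.9% with median-ratio scaling), and the counts of the single lists stand beside those shares. In the lists of the sarcomere, the unfolded protein response and ER-associated degradation, where none rose or none fell, limma at an unadjusted p under 0.05 and voom called 0 as well on the deposited values. The heat shock transcription factors also gave 0 higher, but there 1 was higher at an unadjusted p under 0.05 and 1 with voom. Among the cytosolic co-chaperones of HSP90 and HSP70, 9 of 18 were lower and 1 higher (7 and 3 with median-ratio scaling). CHORDC1, an HSP90 co-chaperone, went from 33.2, 35.4 and 30.7 to 18.6, 19.5 and 18.8 FPKM (-0.77, limma adjusted p 0.00086), and CACYBP from 70.6, 64.8 and 58.4 to 36.1, 37.2 and 39.5 FPKM (-0.76, limma adjusted p 0.0012). TOMM34, which links both chaperones to mitochondrial import, went from 4.43, 4.58 and 4.65 to 2.31, 2.48 and 2.21 FPKM (-0.74, limma adjusted p 0.00144). SGTA, a partner of BAG6, rose by 0.21 (limma adjusted p 0.034), a call lost in 4 of the 6 fits that leave out a library (24 h replicate 4 or 5, 36 h replicate 5 or 6; adjusted p between 0.079 and 0.105).

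Of the heat shock transcription factors, HSF2 fell from 39.2, 37.2 and 34.1 to 20.7, 19.4 and 20.5 FPKM (-0.83, SE 0.072, limma adjusted p 0.000752). HSF1, the main activator of the heat shock response, was at 27.1, 27.9 and 29.4 FPKM and then 30.7, 32.2 and 35.9 FPKM. Every 36 h value was above every 24 h value, and its change of 0.22 missed the threshold (limma adjusted p 0.0509). It passed with median-ratio scaling (0.39) and without the 24 h replicate 6 (0.25, adjusted p 0.0387). It also passed with quantile normalization (adjusted p 0.0161), voom (adjusted p 0.0486) and the replicate number as a block (adjusted p 0.0394). In the list of TRiC cofactors, prefoldin and tubulin cofactors, 5 of 8 were lower and 2 higher (2 and 2 with median-ratio scaling). TBCA went from 112, 124 and 139 to 67.1, 69.0 and 73.4 FPKM (-0.82, limma adjusted p 0.00118) and the prefoldin subunit PFDN4 from 27.9, 32.2 and 28.6 to 18.8, 19.3 and 19.9 FPKM (-0.59, limma adjusted p 0.00166). TXNDC9, a modulator of TRiC, fell by 0.30 (limma adjusted p 0.0158), a call lost under median-ratio scaling, under quantile normalization and without the 36 h replicate 4 (adjusted p 0.0535). The tubulin cofactors TBCC (0.51) and TBCD (0.42) rose (limma adjusted p 0.00425 and 0.00195).

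Of the 5 genes tested in the list of the sarcomere outside the symbol rule, 3 were higher and 0 lower (4 and 0 with median-ratio scaling). The list held UNC45B, SMYD1, FLNC, LMOD2 and SYNPO2, not all of which are chaperones. SMYD1, which modifies and chaperones myosin, rose from 123, 109 and 67.8 to 292, 239 and 169 FPKM (1.22, SE 0.27, limma adjusted p 0.0101). UNC45B, the HSP90 co-chaperone that folds the myosin head, rose from 202, 189 and 134 to 289.5, 286 and 306 FPKM (0.76, SE 0.15, limma adjusted p 0.00669). In both, replicate 6 was the lowest 24 h library, and without it the changes were 0.97 and 0.58. FLNC, the filamin that BAG3 and HSPB8 help to clear, rose by 0.47 (limma adjusted p 0.0365), and lost the call without 24 h replicate 5 or any 1 of the 36 h libraries (adjusted p between 0.0515 and 0.103). Without the 24 h replicate 6 its change was 0.30 (adjusted p 0.00855).

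In the ER, the genes of glycoprotein folding and quality control outside the symbol rule gave 15 of 23 lower and 3 higher. With median-ratio scaling 9 were lower and 3 higher. UGGT2 and UGGT1, which re-mark unfolded glycoproteins for another round with calnexin, went from 7.68, 7.61 and 10.6 to 2.32, 2.63 and 2.66 FPKM (-1.43, limma adjusted p 0.000907) and from 20.4, 21.1 and 28.2 to 11.6, 10.5 and 11.2 FPKM (-0.99, limma adjusted p 0.00174). The prolyl isomerase FKBP9 went from 62.0, 66.1 and 73.7 to 29.1, 27.0 and 28.1 FPKM (-1.23, limma adjusted p 0.000586). CRELD1 (0.76), ERP29 (0.28) and the low-level MZB1 (1.57, from 0.723, 0.516 and 0.114 to 3.61, 4.08 and 2.24 FPKM) rose (limma adjusted p 0.00181, 0.00817 and 0.00256). Of the ER-associated degradation and translocon genes 10 of 17 were lower and 0 higher. With median-ratio scaling 7 were lower and 0 higher, where 1 was higher at an unadjusted limma p under 0.05. SEL1L (-0.76), SEC63 (-0.58) and ERLEC1 (-0.53) changed most on the deposited values (limma adjusted p 0.000817, 0.00275 and 0.0012). Of 10 regulators of the unfolded protein response 3 were lower and 0 higher (2 and 0 with median-ratio scaling). XBP1, the factor that IRE1 activates by splicing, went from 68.5, 73.4 and 72.4 to 52.0, 51.1 and 55.5 FPKM (-0.43, limma adjusted p 0.00239). The stress sensor ATF6 went from 40.8, 40.0 and 37.9 to 26.1, 31.0 and 32.0 FPKM (-0.41, limma adjusted p 0.00936, but adjusted p 0.0869 with median-ratio scaling), and MBTPS1, the protease that cleaves it, changed by -0.39 (limma adjusted p 0.00247). Of the 11 mitochondrial folding and protease genes 3 were higher and 1 lower (5 and 1 with median-ratio scaling). GRPEL2, an exchange factor for HSPA9, rose from 19.1, 19.8 and 19.0 to 29.0, 29.2 and 25.7 FPKM (0.51, limma adjusted p 0.00212), as did PHB2 (0.33, limma adjusted p 0.00405) and SPG7 (0.23, limma adjusted p 0.0254, lost without 24 h replicate 5 or any 1 of the 36 h libraries, with adjusted p between 0.052 and 0.0783), while CLPX fell from 47.3, 45.7 and 51.2 to 33.4, 32.1 and 30.2 FPKM (-0.58, limma adjusted p 0.00155).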

How the data were processed

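RNA-seq of 6 libraries of PSCs was analysed, 3 at 24 h and 3 at 36 h of differentiation. The study's methods name HISAT2, StringTie and HTSeq, whereas the submitters' processing notes name TopHat2, Cufflinks and HTSeq with Sscrofa11.1. The deposited values are FPKM, made by the authors for every library separately, and 0 columns were left unused. Strandedness and the treatment of reads shared between genes are not given in the sources used here. Ensembl identifiers were paired with symbols for 11804 genes. The identifiers of the table end at number 31070, and the name table holds 3819 with higher numbers, which are not analysed here.

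The whole numbers of fragments behind the FPKM values were recovered from the steps within each gene (19543 genes above 0 in at least 3 libraries, all whole within 0.01), which gave library totals between 16382890 and 21896353, of which about 99.2% lie in the table.

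The 14060 genes whose mean reached 1 FPKM entered a two-sided limma test (version 3.58.1, R 4.3.3; lmFit and eBayes with a trend) on log2(FPKM + 1), with Benjamini-Hochberg adjustment over all of them and a threshold of 0.05. The study's own tool for counts was not used here, and voom on the recovered fragments was run as an alternative. A change on this scale understates that of genes at low FPKM. The scripts were first tested on artificial data with known changes. The members and the gene lists were chosen with earlier results of these data known, and lists are described by counts and medians only. Named genes are a core of 51 chaperones, of which 39 had a value, plus the 3 largest rises and falls per location and per list past the threshold, for locations only genes whose groups do not overlap. Every other gene named was chosen after its values were seen.

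As alternatives, the pseudocount was set to 0.1 or 0.01, the filter was dropped or raised to a mean of 5 FPKM, the libraries were rescaled by median ratios or quantiles, eBayes was run with no trend, an absolute log2 change of 1 was required, the replicate number entered as a block, and each library was left out. Deviations from the group means of libraries with the same number correlated at 0.146, -0.016 and 0.178, and the numbers were not taken as pairs. Positions are those of RefSeq for Sscrofa11.1, where 71 of the 72 symbols matched. Member sequences were not used here.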

Additional observations from a re-analysis of the deposited data

How the results depend on the processing

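Of the 1106 values of named genes under the alternatives other than the fold threshold, 1023 kept their direction and call, 54 lost the call, 11 gained it and 18 changed sign; in 44 of 74 named genes neither changed in any of these. The sign changes were all in genes that had not been called. With median-ratio scaling the log2 change was 0.15 for DNAJA3, 0.017 for DNAJB1, 0.12 for DNAJB11, 0.16 for HSPA1L, 0.10 for HSPA4 and 0.14 for HSPB8, and with quantile normalization 0.016 for DNAJA3 and 0.0086 for DNAJB11. Leaving out 1 library at a time, the change ranged from -0.039 (without 24 h replicate 6) to 0.12 for BAG3, from -0.025 (without 24 h replicate 6) to 0.052 for CCT7, from -0.085 to 0.048 for DNAJA3 (0.00024 without 24 h replicate 5), from -0.073 to 0.034 for HSPA1L (0.011 without 24 h replicate 4 and 0.0018 without 36 h replicate 5), from -0.19 to 0.031 for HSPA4 and from -0.33 to 0.15 for HSPB8 (0.086 without 24 h replicate 5). The cause was not tested.

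The number of ER genes called, all of them lower, fell from 16 to 8 with median-ratio scaling. The share of all genes tested that were lower went from 34.4% to 22.3%. With an absolute log2 change of 1 as a further condition there were 4 chaperone genes (1 higher and 3 lower), among them 2 cytosolic, 0 ER and 0 mitochondrial, and 4 of the genes that work with them. Leaving out each library gave between 30 and 40 chaperone genes, 13 and 18 cytosolic, 12 and 15 ER, 3 and 3 mitochondrial, 1 and 2 small (2 without the 24 h replicate 6, where HSPB8 was lower) and 44 and 60 of the other lists. With the replicate number as a block, 38 chaperone genes were called (5 higher and 33 lower), with 16 cytosolic, 15 ER, 3 mitochondrial and 1 small, and 57 of the other lists; among the chaperone genes the block lost DNAJC3 (adjusted p 0.0528) and gained DNAJC7 (adjusted p 0.0299). The share of all genes called is at hand for the fit without the 24 h replicate 6 (52.2%). It was not computed for the fold condition, the block or the other fits that leave out a library. Those counts therefore do not show whether chaperone genes differ from other genes. With 3 libraries per group, changes within the spread of the libraries were not detectable, and HSPB6 at 24 h rested on 110 to 144 fragments.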

Other observations

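Within-library ratios do not depend on the scaling of a library. They were chosen after the values were seen, 10 were computed, and the smallest p that an exact two-sided permutation test of 3 against 3 can give is 0.1. HSPD1 over HSPE1 was 0.593 ± 0.011 (SD, n = 3) at 24 h and 0.461 ± 0.023 at 36 h, where the pair works as 1 chaperonin and its lid (exact p = 0.1, adjusted 0.2). CCT7 over the geometric mean of the 6 other TRiC subunits tested was 1.53, 1.60 and 1.66 at 24 h and 2.14, 2.31 and 2.26 at 36 h (exact p = 0.1, adjusted 0.2). HSPH1 over HSPA8, an exchange factor over its HSP70, was 0.444, 0.450 and 0.557 at 24 h and 0.235, 0.247 and 0.227 at 36 h, and HSPH1 over its relative HSPA4 was 0.488, 0.562 and 0.657 and then 0.191, 0.201 and 0.210. HYOU1 over HSPA5, the like pair of the ER, was 0.210 ± 0.0031 at 24 h and 0.165 ± 0.0062 at 36 h. Each of these last 3 also gave an exact p = 0.1, adjusted 0.2, with no overlap between groups.

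The other 5 ratios overlapped between the groups. HSP90AA1 over HSP90AB1 was 1.72, 1.59 and 1.44 at 24 h and 1.42, 1.54 and 1.73 at 36 h (exact p = 0.8, adjusted 0.8). BAG3 over HSPB8 was 0.0999, 0.107 and 0.156 and then 0.123, 0.134 and 0.123 (exact p = 0.8, adjusted 0.8), where the 24 h replicate 6 held the highest value. The ratios of DNAJA1 over HSPA8, HSP90B1 over HSP90AB1 and HSPA5 over HSPA8 gave an exact p of 0.7, 0.4 and 0.4 (adjusted 0.8, 0.571 and 0.571), and in each of them the 24 h replicate 6 was the highest of the 6 libraries.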
